A study of Mus musculus with 16 samples.

Results

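Mouse primary lung fibroblasts that received siRNA against Loxl1 (the siLoxl1 group, 4 arrays) were compared with the same kind of cells that received scrambled control siRNA (the scr group, 4 arrays). The comparison takes in 8 of the 16 arrays of the series and every non-control probe on them, and the arrays were chosen by the sample titles. The remaining 8 arrays carry RNA from cells given siRNA against Lox (siLox, 4 arrays) or against Loxl2 (siLoxl2, 4 arrays). All cells had been passaged at least 3 times, and RNA was taken 48 h after transfection in every group. The labels give neither the siRNA sequences nor whether replicates came from separate cultures or animals, so the p-values below measure only the spread between these samples. An untransfected group was not analysed here, so every difference is relative to cells that had also been transfected with siRNA.

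Loxl1 encodes a secreted, copper-dependent amine oxidase of the lysyl oxidase family. These enzymes oxidise lysine side chains in elastin and collagen precursors, and the aldehydes that result condense into the cross-links that make the fibres insoluble. LOXL1 is known mainly for the assembly and renewal of elastic fibres, which give lung tissue its recoil and are laid down by lung fibroblasts. Transfected double-stranded RNA can also be sensed by receptors such as TLR3, RIG-I and MDA5, which switch on interferon beta and the interferon-stimulated genes, so these genes are of interest in any siRNA experiment.

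The slides set a limit on everything that follows. Each group occupied its own row of a slide, with scr and siLox on slide 1 and siLoxl1 and siLoxl2 on slide 2, so for siLoxl1 against scr the slide and the siRNA cannot be told apart. For this reason the difference between siLoxl1 and siLoxl2, which shared slide 2, is given beside the difference from scr for many gene groups and many of the genes described in detail. A level here is the log2 of the background-corrected, scanner-processed intensity of a gene's brightest probe minus the 75th percentile of its array. The array's 75th percentile was itself 8.67 to 8.90 on slide 1 in the scr arrays and 9.77 to 9.90 in the siLoxl1 arrays, and 29667 to 30604 of 59305 spots were well above background in scr against 35839 to 37401 in siLoxl1. The array's E1A control probes, which target no mouse gene, also differed between siLoxl1 and scr after scaling. Of 10 such probes, the 8 brighter lay 0.48 to 1.23 higher in siLoxl1 and the 2 dimmest 1.11 and 1.18 lower, whereas siLoxl1 and siLoxl2 differed by −0.10 to 0.13. Replicates were closer in siLoxl1 (median SD 0.09 over genes) than in scr (median SD 0.17). Within groups, arrays correlated at 0.996 to 0.998 in siLoxl1 and at 0.987 to 0.994 in scr.

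**Figure D1:**
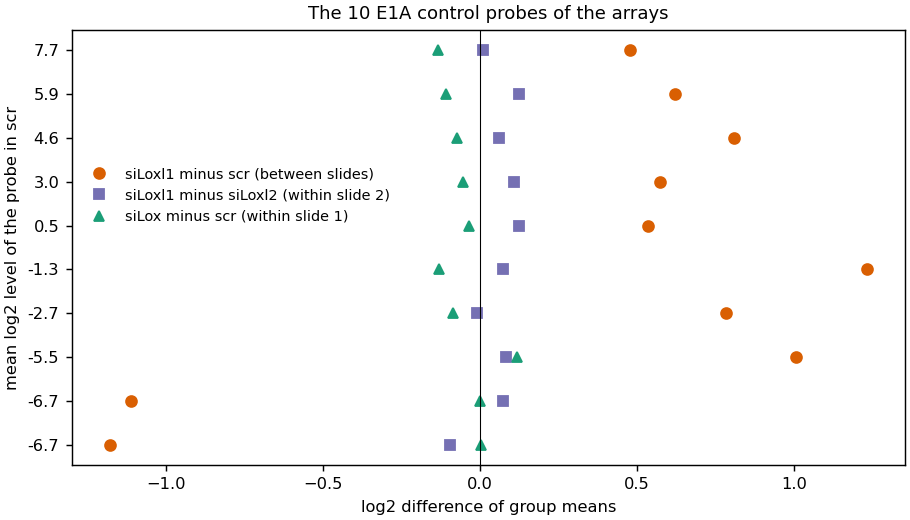
Log2 difference of group means for the 10 E1A control probes (x axis), 1 line per probe with its mean log2 level in scr on the y axis. Circles (siLoxl1 minus scr, between slides) lie at 0.48 to 1.23 for the 8 brighter probes and at −1.11 and −1.18 for the others, while squares (siLoxl1 minus siLoxl2) and triangles (siLox minus scr), both within a slide, lie at −0.14 to 0.13.

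Individual arrays also stood apart in places. On siLoxl1 replicate 4, a small rectangle of spots was misread: 15 of its 28 bright spots differed by over 2 log2 units from the mean of the other 3 arrays. The rectangle holds the probes of 27 genes, and of the genes on the lists it touches Fn1 and Aurkb. On scr replicate 1, several cytokine and immediate early genes were low: Csf2 read −0.86 there against 1.77 to 2.87 on the other scr arrays.

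The cells carried fibroblast RNA. All 15 fibroblast markers were well above background on all 8 arrays, whereas Epcam, Cdh1, Nkx2-1, Sftpc and Foxj1 (epithelium), Prox1 and Tie1 (endothelium), and Spi1 and Ms4a1 (leukocytes) were on 0 arrays of either group. Of the epithelial markers 12 of 22 were measurable, of the endothelial 13 of 19, of the leukocyte 25 of 27 and of the mesothelial 12 of 14. Well above background on all 8 arrays were 9 epithelial, 9 endothelial, 21 leukocyte and 12 mesothelial markers. Most leukocyte and mesothelial markers were thus detected, and Spi1 and Ms4a1 are exceptions on their list. In bulk RNA such as this, fewer cells of a type and less RNA per cell cannot be told apart.

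Loxl1 was lower in every siLoxl1 array than in every scr array. Both probes for the gene lie in its coding sequence on the minus strand of chromosome 9 (mm9), and they read separate stretches of the transcript. They are printed 5′ to 3′ as deposited, because the knockdown rests on them; no part is set in capitals.

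Loxl1 probe A_51_P304239, chr9:58138570-58138629: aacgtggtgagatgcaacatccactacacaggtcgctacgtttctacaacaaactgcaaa
Loxl1 probe A_55_P2096226, chr9:58145451-58145510: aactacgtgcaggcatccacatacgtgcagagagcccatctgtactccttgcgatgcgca

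The brighter Loxl1 probe, A_51_P304239, read 5.79, 5.60, 5.56 and 5.35 in scr replicates 1 to 4 and 4.54, 4.54, 4.60 and 4.72 in siLoxl1. The ranges did not overlap, and the 4 siLoxl2 arrays (5.65, 5.80, 5.79 and 5.78) sat with scr. The siLox arrays lay between, with a difference of −0.49 from scr. The signal left was 50.8% of scr (log2 difference −0.98 ± 0.10 SE, limma adjusted p = 1.34e-06) and 44.9% of siLoxl2 (−1.15 ± 0.10, limma adjusted p = 4.15e-05). The second probe, A_55_P2096226, gave 49.3% of scr (−1.02) and 41.5% of siLoxl2 (−1.27). In an exact two-sided permutation test, each of the 4 comparisons gave p = 0.0286, also after adjustment over the 4, which is the smallest value that 4 against 4 allows. The reduction was thus seen with both probes and against a group on either slide.

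The other lysyl oxidases differed from scr as well, and none of these differences passed against siLoxl2 in the main fit. The main fit pools the spread of both slides. Median SD over genes was 0.167 in scr and 0.132 in siLox, against 0.0928 in siLoxl1 and 0.0899 in siLoxl2. The other lysyl oxidases were not refitted on slide 2 alone, so a miss against siLoxl2 does not show equal levels. Lox, the founding member, which cross-links collagen and elastin, read 4.16, 4.08, 4.15 and 3.88 in scr and 4.53, 4.86, 4.68 and 4.93 in siLoxl1. That is 0.68 ± 0.24 higher (limma adjusted p = 0.0226). The call was lost under quantile normalization (adjusted p = 0.138) and in the authors' deposited values (0.139). It was also lost without scr replicate 4 (0.0574), siLoxl1 replicate 2 (0.0521) or siLoxl1 replicate 4 (0.0584). Against siLoxl2, Lox was −0.14 (adjusted p = 0.839).

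Loxl2, which is linked to cross-linking of collagen IV in basement membranes, read 6.80, 6.47, 6.42 and 6.09 in scr and 5.59, 5.81, 5.61 and 5.73 in siLoxl1. It fell by 0.76 ± 0.14 (adjusted p = 0.000221), without overlap between the groups. The other probes of Loxl2, well above background on all 8 arrays, were −1.21 and −1.12 from scr. With the mean of probes the difference was −1.03. By its brightest probe, the siLoxl1 level of Loxl2 was 0.30 above that of siLoxl2, where Loxl2 was the siRNA's target, and that difference did not pass (adjusted p = 0.277). Loxl4 read 1.31 to 1.65 (mean 1.51 ± 0.15 SD, n = 4) in scr and 0.65, 0.64, 0.62 and 0.71 in siLoxl1, a fall of 0.85 ± 0.09 (adjusted p = 1.2e-06). Against siLoxl2 its difference was −0.34 (adjusted p = 0.0508). Loxl3 lay on the threshold at −0.17 (adjusted p = 0.0498). It was −0.30 with quantile normalization (adjusted p = 0.00262) and passed there and in the authors' deposited values (0.00258). It did not pass in the fit of the 8 arrays alone (0.0792), with the replicate block (0.085), without the filter on dim probes (0.0604), with the mean of probes (0.0506), or without any 1 replicate of either group other than scr replicate 4. Without scr replicate 1 it was −0.11 (adjusted p = 0.156).

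**Figure D2:**
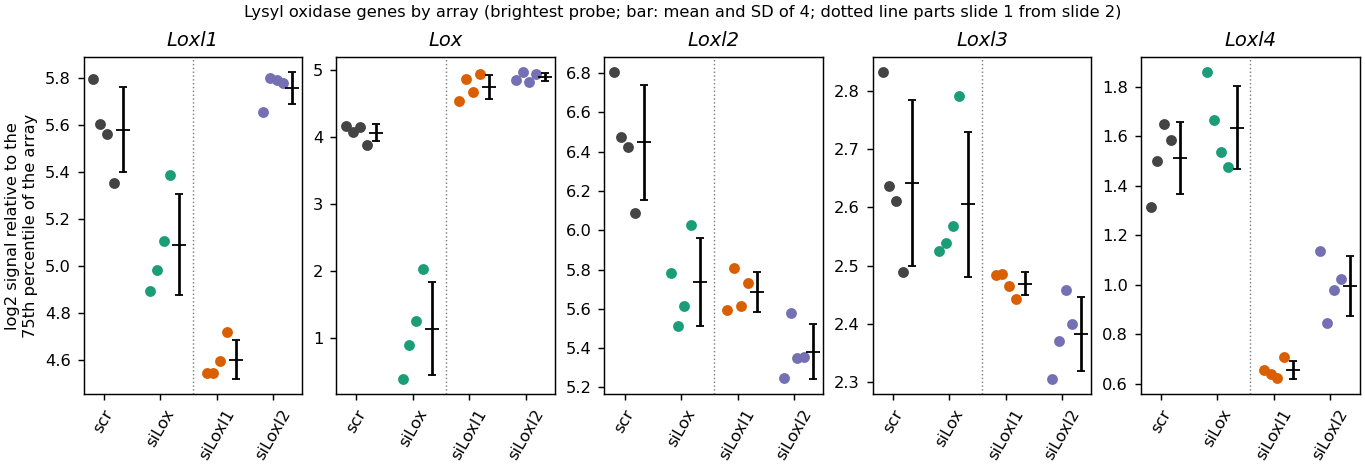
Scaled log2 level of the 5 lysyl oxidase genes on each array (points, 4 per group; bars are the mean and SD; axes differ between panels and do not start at 0; a dotted line parts the slides). Loxl1 is lowest in the 4 siLoxl1 arrays, at 4.54 to 4.72, and Loxl4 lies lower on both groups of slide 2 than in scr.

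Over all genes, most of the transcriptome differed from scr. Of 22644 genes with a probe above background, 14744 (65.1%) passed limma's test at an adjusted p of 0.05, 9793 of them higher (43.2%) and 4951 lower (21.9%). Against siLoxl2 on the same slide, 905 genes passed (4.00%), 585 higher (2.58%) and 320 lower (1.41%). That balance turned over with quantile normalization, to 248 higher of 579 that passed (the rest lower), and leaving out 1 of those 8 arrays gave 230 to 369 higher and 217 to 275 lower. The fit of the 8 arrays of slide 2 alone gave 1382 higher and 611 lower. Genes that did not pass against siLoxl2 in the main fit may therefore still differ from it. The values of siLoxl1 and scr did not overlap for 58.2% of genes, and those of siLoxl1 and siLoxl2 for 20.3%. Differences of at least 1 log2 unit numbered 2066 higher (9.12%) and 1223 lower (5.40%) against scr, but 5 higher (0.0221%) and 97 lower (0.428%) against siLoxl2.

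The balance between higher and lower calls against scr depended on the scaling. It was 7818 to 6266 after quantile normalization, 7801 to 6278 in the authors' deposited values, 8293 to 9874 with normexp background correction and 9802 to 12267 of 34731 genes without the filter. The median of all genes was 0.19 above scr, 0.08 with quantile normalization and −0.07 with normexp, and differences below are best read against it. Counts of list members below are likewise to be read against the shares of all genes. These were 43.2% higher and 21.9% lower against scr, and 2.58% and 1.41% against siLoxl2. For comparison, siLoxl2 against scr gave 14667 passing genes (64.8%; 41.4% higher and 23.4% lower) and siLox against scr, both on slide 1, gave 9746 (43.0%; 19.4% higher and 23.7% lower).

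The interferon response had the largest median difference from scr of the 39 gene lists, and its genes were also lower than siLoxl2 within slide 2. Of 50 interferon-stimulated genes and inducers, 48 were lower in siLoxl1 than in scr and 1 was higher, with a median of −3.40 (−3.29 with undetected members at their bounds) against 0.19 for all genes. Against siLoxl2, 45 of the 50 were lower and 0 higher, with a median of −1.23 against 0.03 for all genes. At an unadjusted p of 0.05 in limma, 46 were lower than siLoxl2 and 0 higher. The group's mean level was 4.20 to 4.38 on the scr arrays, 4.40 to 4.50 on the siLox arrays, 1.72 to 2.13 on the siLoxl2 arrays, and 0.75, 0.94, 1.03 and 0.43 on the siLoxl1 arrays. The siLoxl1 arrays were thus the lowest of the 16. The part of the slide in the difference from scr was not tested.

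**Figure D3:**
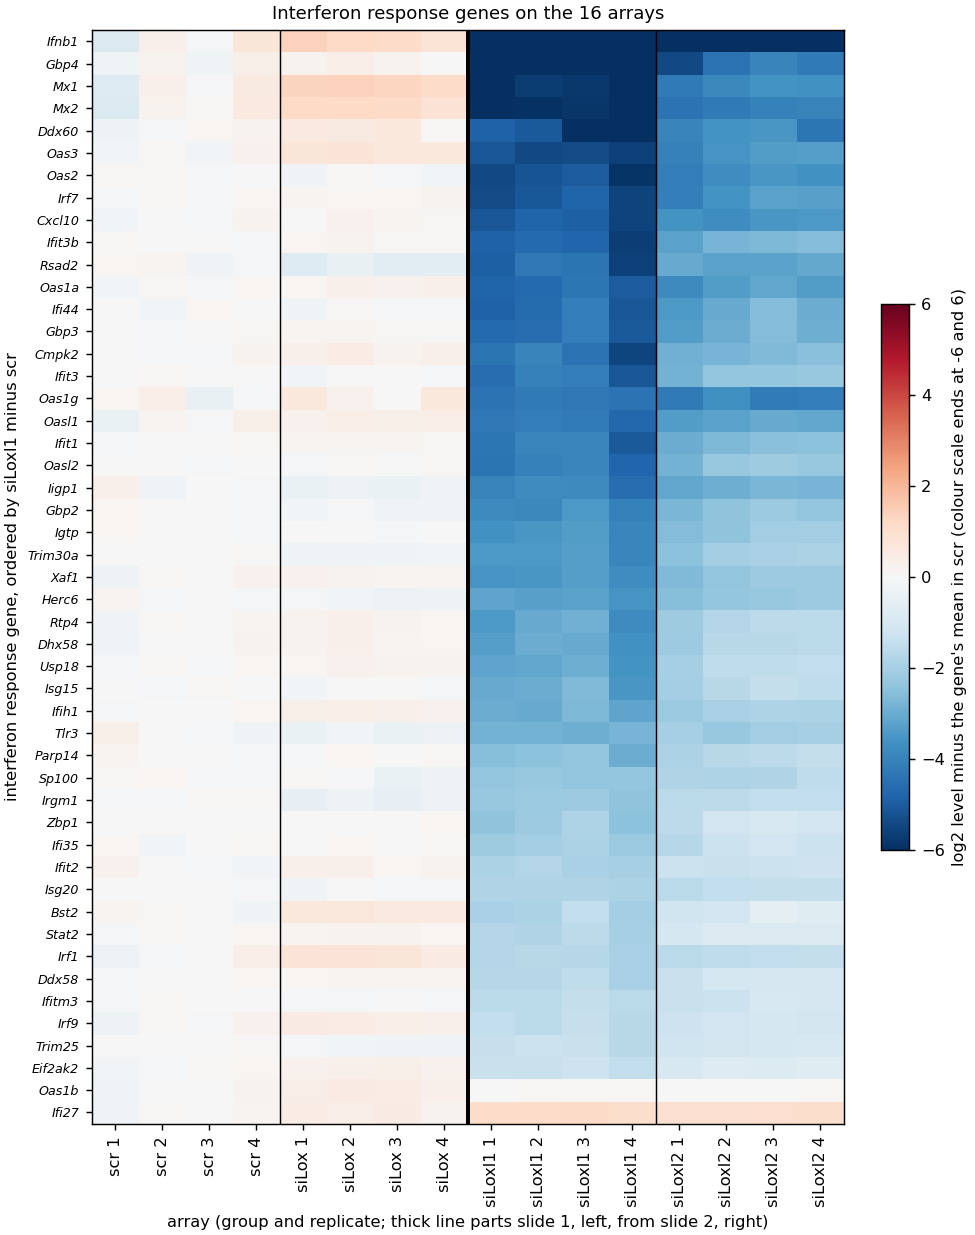
Heat map of interferon response genes (lines, ordered by siLoxl1 minus scr) on the 16 arrays (columns); colour is the log2 level minus the gene's mean in scr, blue lower and red higher, with the scale ending at −6 and 6 and a thick line between the slides. Nearly all genes are deepest blue on the 4 siLoxl1 arrays and paler on the 4 siLoxl2 arrays; Oas1b and Ifi27, at the bottom, are not blue on slide 2.

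Among the inducers, Ifnb1, which encodes interferon beta, read 1.86, 3.05, 2.63 and 3.46 in scr and −6.36, −6.02, −3.99 and −6.08 in siLoxl1. In siLoxl1, 1 of the 4 values was well above background. With the other 3 values at background, the size of the difference is uncertain: it was −8.36 in the fit and −8.90 to −5.95 under the alternatives (limma adjusted p = 1.2e-09 in the fit). The difference of −1.32 from siLoxl2 did not pass (adjusted p = 0.13). Among the sensors of double-stranded RNA, Ifih1 (MDA5) read 4.34, 4.49, 4.46 and 4.56 in scr and 1.49, 1.46, 1.76 and 1.32 in siLoxl1, with 2.25 to 2.59 in siLoxl2. Every siLoxl1 value of Ifih1 was below every siLoxl2 value (−0.97 ± 0.09, adjusted p = 6.05e-05). Tlr3, the endosomal sensor, was lower by −2.85 against scr and −0.77 against siLoxl2, and Ddx58, which encodes RIG-I, by −1.73 and −0.63.

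The signalling genes moved in the same direction by different amounts. Irf7, the transcription factor that amplifies interferon production, read 4.60, 4.78, 4.65 and 4.83 in scr, 0.60, 1.12, 1.48 and 1.48 in siLoxl2, and −0.65, −0.39, −0.07 and −0.83 in siLoxl1. The 3 groups did not overlap, and Irf7 fell by 5.20 ± 0.18 against scr and by 1.65 ± 0.18 against siLoxl2 (limma adjusted p = 1.84e-11 and 0.000135). Stat2 and Irf9, which act in the complex that reads the interferon signal out onto DNA, differed by −1.78 and −1.52 from scr and by −0.86 and −0.39 from siLoxl2. All 4 of these differences passed. Irf1 was −1.78 against scr and −0.26 against siLoxl2, and the second did not pass.

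Among the antiviral effectors, Mx1, a GTPase that blocks viral ribonucleoproteins, read 1.17, 2.22, 1.86 and 2.47 in scr, −2.34, −1.92, −1.65 and −1.72 in siLoxl2, and −5.16, −3.75, −3.84 and −5.99 in siLoxl1. Its difference was −6.61 ± 0.42 from scr and −2.78 ± 0.42 from siLoxl2 (limma adjusted p = 6.24e-09 and 0.00176). Under the alternatives, the Mx1 difference from scr was −6.92 to −5.04. Isg15, a ubiquitin-like modifier, read 8.58, 8.54, 8.64 and 8.62 in scr and 5.58, 5.61, 5.97 and 5.09 in siLoxl1, with 6.54 to 7.15 in siLoxl2. The Isg15 differences were −3.03 ± 0.16 and −1.36 ± 0.16.

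Ifit1, which binds foreign RNA ends, was lower by −4.31 and −1.65 against scr and siLoxl2, Ifit3 by −4.48 and −2.02, and Rsad2 (viperin) by −4.78 and −1.66. Gbp4, a guanylate-binding protein, and Ddx60, a helicase, were not well above background on any siLoxl1 array, so their signals were at least 49.7-fold and at least 23.7-fold lower than in scr. With normexp the fitted Gbp4 difference was −3.50, smaller than this bound. These bounds divide the scr mean by the faintest signal of any probe that counted as above background on the siLoxl1 arrays. They hold for the main background correction only. The 2 members without a lower call were Ifi27, a small interferon-induced membrane protein, which was 1.10 higher than scr and 0.10 from siLoxl2 (adjusted p = 0.612), and Oas1b, whose brightest probe stood at 0.06 (adjusted p = 0.462). The other Oas1b probes, also well above background on all 8 arrays, were −3.75 and −0.76 from scr, so the probes of this gene disagree. Both were singled out after their values were seen, as were the sensors, signalling genes and Ifit genes above. Against siLoxl2, Ifnb1, Oas1g, Irf1, Oas1b and Ifi27 did not pass.

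Some promoters of the interferon response genes hold a sequence known from interferon-stimulated genes. The list was made of such genes and their inducers, so matches there lend no separate weight to the differences. The interferon-stimulated response element was searched as GAAANNGAAA on both strands, overlaps included, in the 250 bases before the RefSeq start (GRCm38.p6). A window was given for 37 of the 50 genes, and 17 of these genes (45.9%) held a match in at least 1 window. The share was 3.46% of 27025 genes in all, or 2.98% of their 32851 windows. Among those with matches were Ifit1, Ifit3, Isg15, Rsad2, Cxcl10, Stat2, Gbp2, Bst2 and Ddx60. The upstream windows of 3 effectors are printed 5′ to 3′ on the gene's strand with the matches in capitals. They show matches on either strand, and in Isg15 an overlapping run.

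Ifit1 (+), chr19:34640639-34640888: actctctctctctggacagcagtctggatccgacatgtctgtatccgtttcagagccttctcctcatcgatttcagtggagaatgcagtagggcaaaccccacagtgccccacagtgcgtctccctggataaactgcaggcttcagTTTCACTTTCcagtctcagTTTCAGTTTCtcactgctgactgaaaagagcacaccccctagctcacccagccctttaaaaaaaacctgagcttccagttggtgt
Isg15 (-), chr4:156200819-156201068: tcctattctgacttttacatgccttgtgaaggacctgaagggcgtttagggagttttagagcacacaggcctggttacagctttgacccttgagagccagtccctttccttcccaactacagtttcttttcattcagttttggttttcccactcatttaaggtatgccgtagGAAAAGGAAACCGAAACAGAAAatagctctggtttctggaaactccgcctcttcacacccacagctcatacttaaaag
Rsad2 (-), chr12:26456453-26456702: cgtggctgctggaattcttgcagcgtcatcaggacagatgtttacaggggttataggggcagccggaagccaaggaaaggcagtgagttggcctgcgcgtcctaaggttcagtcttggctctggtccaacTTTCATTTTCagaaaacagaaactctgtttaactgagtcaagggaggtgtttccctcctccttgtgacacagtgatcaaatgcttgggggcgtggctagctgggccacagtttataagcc

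Ifit1 held 2 matches, Isg15 held 3 and Rsad2 held 1. A match describes these letters and is not evidence of a factor bound there. Irf7, Ifnb1 and Ifih1 were among the members whose window held none, which says only that these letters are not there.

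The class I antigen presentation genes, many of which interferon is known to induce, were also lower. Of 16, 15 fell against scr and 0 rose (0 also at an unadjusted p of 0.05), with a median of −1.69, and 6 fell against siLoxl2. Psmb8, a catalytic subunit of the immunoproteasome, read 4.68, 4.64, 4.52 and 4.44 in scr, 1.02 to 1.71 in siLoxl2, and 0.08, 0.31, 0.52 and −0.15 in siLoxl1. That is −4.38 ± 0.15 against scr and −1.24 ± 0.15 against siLoxl2 (limma adjusted p = 1.47e-11 and 0.000264). Psmb9 differed by −4.17 and −1.10, the peptide transporter Tap1 by −2.33 and −0.73, and the loading chaperone Tapbp by −2.11 and −0.48. The class II gene H2-Ab1 went the other way. It read −1.35, −1.51, −1.41 and −1.65 in scr and 2.53, 2.54, 2.41 and 2.60 in siLoxl1 (4.00 ± 0.08, adjusted p = 2.52e-13), and stood within 0.08 of siLoxl2 (−0.08, adjusted p = 0.691).

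Many cytokine and NF-kB target genes were lower than in scr, and few differed from siLoxl2. Of 38 measured, 22 fell and 4 rose against scr, with a median of −1.27 (−1.15 with undetected members at their bounds); without scr replicate 1, whose list mean of 0.73 was the lowest of the scr arrays, 25 fell and 4 rose. Csf2, the growth factor GM-CSF, read −0.86, 2.07, 1.77 and 2.87 in scr and −5.33, −5.46, −5.50 and −5.54 in siLoxl1. Its difference from scr was −6.92 ± 0.55 and from siLoxl2 −0.03 (limma adjusted p = 6.79e-08 and 0.989). Under the alternatives, the Csf2 difference from scr was −7.69 to −4.76. The neutrophil chemokine Cxcl1 differed by −6.22 and −0.48 (adjusted p = 1.81e-08 and 0.656), and Cxcl2 and Cxcl3 were at least 38.2-fold and at least 16.7-fold lower than in scr (log2 differences of −3.18 and −2.19 with normexp). Against siLoxl2 only Il1rn (−1.76), the interleukin 1 receptor antagonist, and Ccl9 (0.65), a chemokine, passed; both were named after their values were seen. Serum response and immediate early genes fell in 22 and rose in 9 of 35 (62.9% and 25.7%, against 21.9% and 43.2% of all genes). Examples are Egr4 (−4.00), Atf3 (−2.22), Egr1 (−2.04) and Zfp36 (−1.83), of which the first was −0.64 on scr replicate 1. Their differences from siLoxl2 were −0.06, −0.32, 0.38 and −0.09, and none passed.

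**Figure D4:**
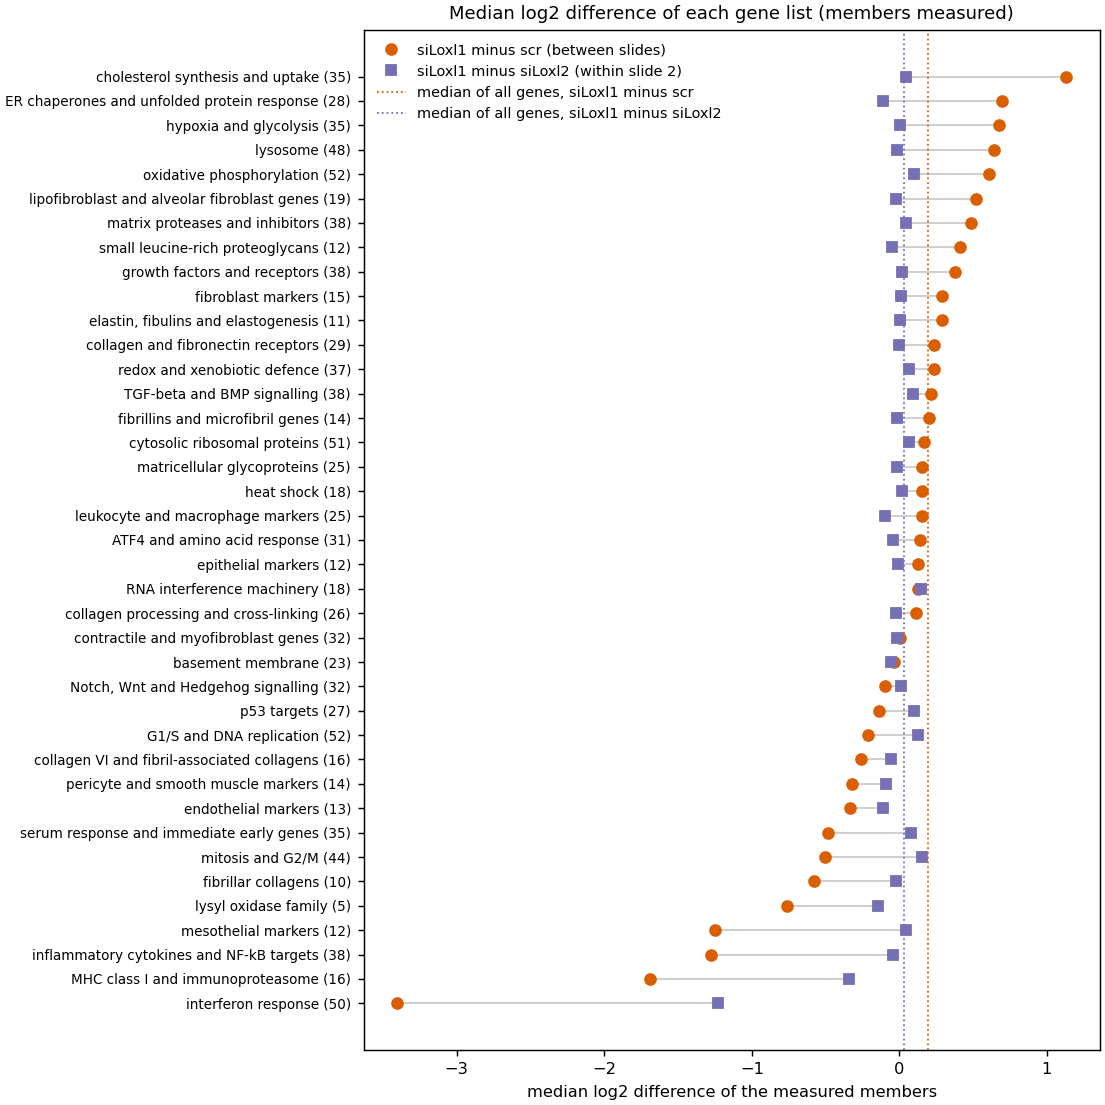
Median log2 difference of each gene list, siLoxl1 minus scr and siLoxl1 minus siLoxl2 (points), with the median of all genes marked. The interferon response lies at −3.40 and −1.23, while cholesterol synthesis lies at 1.13 against scr and 0.05 against siLoxl2.

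Among single genes with a clear signal on all 8 arrays, the 12 with the highest differences from scr were Akr1c18, S100a8, Mmp3, Gda, Bcl2l15, Prl3a1, Slc14a1, Crct1, Adcyap1r1, H2-Ab1, Crabp1 and Hsd11b1, at 6.23 down to 3.86. Akr1c18, a hydroxysteroid dehydrogenase, read −2.05, −1.57, −1.44 and −1.23 in scr, 4.57, 4.75, 4.61 and 4.69 in siLoxl1, and 4.28 to 4.51 in siLoxl2. Mmp3, stromelysin, read 0.11, −0.11, −0.08 and −0.11 in scr and 5.22 ± 0.16 (mean ± SD, n = 4) in siLoxl1 (difference 5.26 ± 0.17, limma adjusted p = 8.64e-12). Both lay far nearer siLoxl2 than scr. Their differences from siLoxl2 were 0.25 and 0.06 and did not pass in the main fit (adjusted p = 0.367 and 0.916). Of the 12, only S100a8, a calcium-binding protein of myeloid cells, also passed against siLoxl2. It read −3.98, −3.05, −3.87 and −3.34 in scr, 1.82, 1.79, 1.69 and 1.77 in siLoxl2 and 2.58, 2.46, 2.35 and 2.40 in siLoxl1, which is 6.01 ± 0.16 and 0.68 ± 0.16 higher (adjusted p = 2.38e-12 and 0.034).

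The 12 lowest were Csf2, Mx1, Cxcl1, Phf11b, Mx2, Traf1, Syt10, Cd83, Tgtp1, Tgtp2, Col10a1 and Oas3, at −6.92 up to −5.38. The sizes of several depended on the processing. Under the alternatives Cd83 was −6.59 to −4.01, Tgtp1 −5.68 to −3.93, Col10a1 −5.60 to −3.79 and Oas3 −5.46 to −3.88. Phf11b, Mx1, Mx2, Tgtp1, Tgtp2 and Oas3 are genes known to respond to interferon, and each also fell against siLoxl2: Phf11b by 1.72, Tgtp1 by 1.43 and Tgtp2 by 1.88 on the log2 scale. Tgtp1 and Tgtp2 are near-identical copies, so their probes may share signal. Syt10, a synaptotagmin, was −5.84 against scr and −1.12 against siLoxl2, and Col10a1 was −5.50 and 0.08; neither passed against siLoxl2 (adjusted p = 0.335 and 0.962). Genes well above background in all arrays of 1 group and none of the other numbered 268 on the higher side of siLoxl1 and 19 on the lower. Fewer spots were above background in scr, and the part of that in these counts was not tested. The largest bounds on the higher side were Aqp8 (at least 17.3-fold), Derl3 (14.6), Gdf10 (11.8), Lce3a (11.2) and Snhg11 (9.16), and all 5 were detected on the 4 siLoxl2 arrays and on 0 siLox arrays. Col22a1, a collagen of tissue junctions, was at least 28.4-fold lower than in scr, and was detected on 0 siLoxl2 arrays and on 4 siLox arrays. The bounds on these genes were not recomputed with normexp.

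Some genes differed in the same direction from both scr and siLoxl2. Ranked by the smaller of the 2 differences, the first 10 lower genes were Mx1, Clec4e, Ifit3b, Gbp6, Ifit3, Mx2, Oasl2, Tgtp2, Cmpk2 and Oas3. Clec4e (Mincle), a lectin receptor of innate immune cells, was not on the interferon list. It read −3.45, −2.22, −2.27 and −1.37 in scr, −1.23, −1.35, −1.57 and −1.32 in siLoxl2, and −4.94, −4.46, −5.03 and −4.81 in siLoxl1. The difference was −3.44 ± 0.31 against siLoxl2 (adjusted p = 4.15e-05) and −2.48 ± 0.31 against scr (limma adjusted p = 6.31e-06), and siLox arrays read −1.68 to −1.27.

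On the higher side the first 10 included Pla2g7, S100a8, Pf4, Tmem179, Bst1, Lrrc8b, Sema7a, Prdm10 and Zbtb44, with smaller effects. Pla2g7, a phospholipase that degrades platelet-activating factor, was 0.77 and 0.76 higher (its other probe gave 0.22 and 0.15, and the mean of its probes 0.49 against scr). Pf4, a platelet chemokine, read 0.00, −0.26, 0.51 and 0.57 in scr, −0.29, −0.51, −0.15 and −0.36 in siLoxl2, and 1.00, 0.82, 0.86 and 0.84 in siLoxl1 (0.67 ± 0.15 and 1.20 ± 0.15, limma adjusted p = 0.00117 and 0.000361). Bst1, an ectoenzyme, was 0.54 and 0.80 higher, but with normexp it was 0.18 from scr and did not pass (adjusted p = 0.0584), and Sema7a, a membrane-anchored semaphorin, 0.96 and 0.45. For Prdm10 and Zbtb44 other probes of the gene differed from the brightest, in sign for all but 1 (−0.60 and −0.34 for Prdm10, −0.12 and 0.14 for Zbtb44 against scr), so their direction is not settled.

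**Figure D5:**
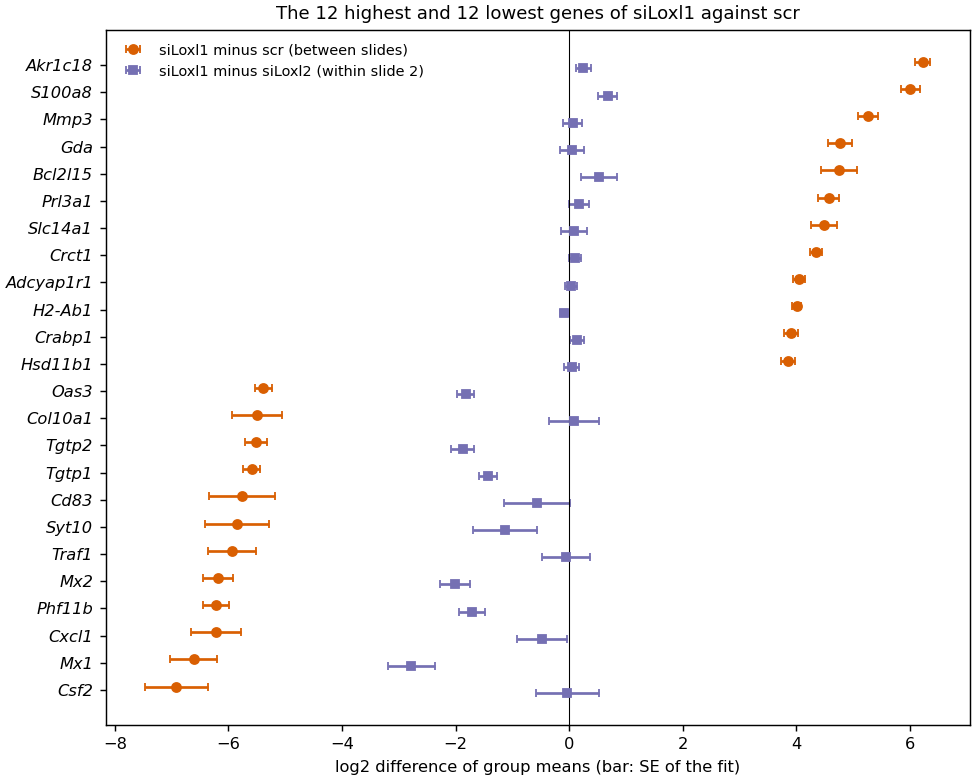
Log2 difference of the 12 highest and 12 lowest genes of siLoxl1 against scr (circles) and the same genes' difference from siLoxl2 (squares), with bars of 1 SE of the fit. The 12 highest lie at 3.86 to 6.23 against scr and, S100a8 at 0.68 apart, did not pass against siLoxl2; of the 12 lowest, Mx1, Mx2, Phf11b, Tgtp1, Tgtp2 and Oas3 also lie below siLoxl2.

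Genes of the elastic fibre, the structure LOXL1 acts on, differed from scr in both directions. Of 11 measured, 6 were higher and 5 lower than scr (54.5% and 45.5%, against 43.2% and 21.9% of all genes). Against siLoxl2, 0 passed in limma (1, lower, at an unadjusted p of 0.05), beside 4.00% of all genes. Eln, which encodes tropoelastin, the substrate, read 0.89, 0.18, 0.54 and 0.23 in scr and −4.30, −4.40, −3.81 and −4.30 in siLoxl1. The difference was −4.66 ± 0.33 (limma adjusted p = 2.21e-08), and −0.39 against siLoxl2 did not pass (adjusted p = 0.63). Under the alternatives, the Eln difference from scr was −4.79 to −3.57. Fbln5, the fibulin that tethers LOXL1 to elastin, was −0.45 from scr, and −1.37 with its other probe. Ltbp4, which helps lay elastin onto microfibrils, was −1.48, and −1.475 and −0.46 with its other probes. Efemp1 (fibulin 3) was 2.40 higher, Emilin2 2.56 higher, and Hmcn1 differed by −2.19 (−1.28 with normexp). Their differences from siLoxl2 were 0.08, 0.01 and 0.01, and none passed.

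Of 10 fibrillar collagen genes, the other substrates of the family, 6 were lower than scr and 0 higher, with a median of −0.58. These are 60% lower and 0% higher, against 21.9% and 43.2% of all genes. Col3a1 fell by 1.00 ± 0.25, Col5a3 by 2.17, Col27a1 by 1.88 (its difference was −1.25 with normexp) and Col1a2 by 0.62 on the log2 scale. Col1a1, the most abundant in connective tissue, read 6.77 to 6.93 in scr and 6.89 to 7.08 in siLoxl1 and did not pass (0.15, adjusted p = 0.0861). Against siLoxl2, 0 of the 10 passed, adjusted or not. Among collagens VI and those associated with fibrils, 5 of 16 were higher and 6 lower, with Col14a1 at −3.43, Col6a3 at −2.17 and Col28a1 at 2.01 (0.35 with normexp); against siLoxl2 these were −0.01, −0.08 and −0.08. Collagen processing enzymes numbered 10 higher and 4 lower of 26 (38.5% and 15.4%, against 43.2% and 21.9% of all genes), and without scr replicate 2 the lower count was 2. They included P4ha2, a prolyl hydroxylase (0.80, and 0.52 with quantile normalization), and Adamts14, a procollagen protease (−1.87, and −1.13 with the mean of its probes).

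Among secreted matrix regulators, single genes differed widely from scr while the counts over the lists were near those of all genes. Postn, periostin, read 3.85, 3.45, 3.57 and 3.49 in scr and 0.81, 0.74, 0.55 and 0.59 in siLoxl1, a fall of 2.92 ± 0.14 (limma adjusted p = 2.87e-10), with 0.03 against siLoxl2. Spp1 (osteopontin) was 2.53 higher and Tgfbi 2.37 lower on the log2 scale, with 0.02 and −0.17 against siLoxl2. The matricellular list had 11 higher and 6 lower of 25 (44% and 24%, against 43.2% and 21.9% of all genes), and the proteases and inhibitors 21 higher and 8 lower of 38 (55.3% and 21.1%). Beside Mmp3, these included the collagenases Mmp8 (3.72) and Mmp13 (2.64), and Mmp10 (2.49), whose differences from siLoxl2 were 0.21, −0.20 and 0.16. The fibronectin gene Fn1 has its probe among the misread spots. It read 8.05, 8.08, 7.99 and 8.04 in scr and 8.25, 8.33, 8.28 and −2.60 in siLoxl1, and the difference of −2.48 ± 1.79 (adjusted p = 0.238) became 0.24 ± 0.07 (limma adjusted p = 0.00533) without the misread spots.

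TGF-beta and BMP genes, which drive matrix production in fibroblasts, were 21 higher and 11 lower of 38 (55.3% and 28.9%, against 43.2% and 21.9% of all genes). Against siLoxl2, 2 were higher and 0 lower, where 2.58% and 1.41% of all genes were. At an unadjusted p of 0.05 in limma, 11 were higher than siLoxl2 and 3 lower. Tgfb2, a ligand, read 4.12, 3.84, 3.85 and 3.62 in scr and 0.62, 0.70, 0.74 and 0.78 in siLoxl1 (−3.15 ± 0.08, limma adjusted p = 2.24e-12), and −0.29 against siLoxl2 did not pass (0.0758). The co-receptor Tgfbr3 was 2.63 higher and the ligand Bmp4 1.73 lower than scr on the log2 scale, and neither passed against siLoxl2 (0.15 and −0.23). Contractile genes were 12 higher and 11 lower of 32 (37.5% and 34.4%). Itga11, a collagen-binding integrin subunit, was −3.08 against scr and −0.04 against siLoxl2, and Myocd, a coactivator of smooth muscle genes, was −2.56 and −0.49 (−1.48 against scr with normexp). The medians of both lists change sign with the scaling. Growth factor genes were 23 higher and 10 lower of 38 against scr (60.5% and 26.3%), and 3 higher and 0 lower against siLoxl2. Among them Fgf10, a mesenchymal signal to lung epithelium, read −2.05, −2.14, −2.04 and −2.11 in scr and 0.89, 1.06, 1.02 and 1.01 in siLoxl1 (3.08 ± 0.06), and −0.02 against siLoxl2.

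Metabolic gene groups were higher than scr with few calls against siLoxl2. Of all genes, 43.2% were higher and 21.9% lower than scr. Of 35 cholesterol synthesis and uptake genes, 32 rose and 0 fell (0 also at an unadjusted p of 0.05), with a median of 1.13, and 1 passed against siLoxl2. Insig1, the sterol-responsive brake on this pathway, read −0.86, −1.51, −1.62 and −2.07 in scr and 0.67, 1.02, 0.71 and 0.76 in siLoxl1 (2.30 ± 0.25, limma adjusted p = 1.71e-06), and differed by 0.12 from siLoxl2. Msmo1, an enzyme of late sterol synthesis, was 1.83 higher, and Sc5d, another, was 1.67 higher than scr and 0.27 higher than siLoxl2 (adjusted p = 0.014). Oxidative phosphorylation subunits rose in 48 of 52 (median 0.61), but with quantile normalization 40 rose and 6 fell, with a median of 0.30. Against siLoxl2, 4 were higher, and at an unadjusted p of 0.05 in limma 21 were higher and 0 lower. Of 48 lysosomal genes 42 rose and 2 fell (median 0.64), among them the proton pump subunit Atp6v0a1 (1.30), and against siLoxl2 0 passed in limma (7, all lower, at an unadjusted p of 0.05). Of 35 hypoxia and glycolysis genes 29 rose and 1 fell, with Aldoc at 3.28, Car9 at 1.98 (1.09 with normexp) and Bnip3 at 1.33; against siLoxl2, 2 were higher, and these 3 differed by −0.04, −0.01 and 0.08. Metallothionein Mt2 read 6.06 to 6.13 in scr and 8.30 to 8.34 in siLoxl1 (2.24 ± 0.04), and 0.04 against siLoxl2.

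ER chaperone genes were higher than scr yet partly lower than siLoxl2. Of 28, 21 rose and 2 fell against scr (75% and 7.14%, against 43.2% and 21.9% of all genes), with a median of 0.70. Against siLoxl2, 3 fell: Pdia4, Creld2 and Edem2, named after their values were seen. Pdia4, a disulfide isomerase, was 0.99 higher than scr and 0.73 lower than siLoxl2 on the log2 scale (difference −0.73, limma adjusted p = 0.0036). Hspa5 (BiP), the main ER chaperone, was 1.06 higher than scr and −0.11 from siLoxl2.

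Cell cycle genes lay below scr and, in the main fit, in part above siLoxl2. The calls of these lists against siLoxl2 were not recomputed under the alternatives. Over all genes, higher calls against siLoxl2 went from 585 to 248 with quantile normalization and to 230 to 369 without 1 array. In the fit of the 8 arrays of slide 2 alone they went up to 1382. Of 44 mitosis and G2/M genes 36 fell and 0 rose against scr (median −0.50; 0 rose at an unadjusted p of 0.05), where 21.9% of all genes were lower. Against siLoxl2, 12 were higher and 0 lower (median 0.15), where 2.58% of all genes were higher. Plk1, a kinase of mitotic entry, read 5.38, 5.37, 5.27 and 5.37 in scr, 3.70, 3.74, 3.84 and 3.71 in siLoxl2, and 3.99, 3.90, 4.16 and 3.97 in siLoxl1. It was −1.34 ± 0.06 against scr and 0.26 ± 0.06 against siLoxl2 (limma adjusted p = 2.88e-10 and 0.0356). Kif23, Nek2 and Ttk, which act in cytokinesis, centrosome separation and the spindle checkpoint, were −0.97, −0.96 and −0.95 against scr and 0.15, 0.10 and −0.04 against siLoxl2. Of 52 G1/S and replication genes 30 fell and 13 rose against scr (median −0.22), and 8 were higher than siLoxl2. The helicase subunit Mcm5 read 3.79 to 3.90 in scr and 2.78 to 2.92 in siLoxl1.

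The RNA interference machinery, which the siRNA itself engages, held 7 higher and 5 lower of 18 genes against scr (38.9% and 27.8%, against 43.2% and 21.9% of all genes). Mov10, a helicase bound to the silencing complex, was −1.87 against scr and −0.40 against siLoxl2, and Adar, the editor of double-stranded RNA, −1.62 and −0.49; all 4 passed (limma adjusted p = 6.41e-10, 0.0313, 8.5e-10 and 0.00432). Both genes are known to respond to interferon. Ago2, the slicing Argonaute, was 0.39 higher than scr, 0.19 with quantile normalization, and 0.14 from siLoxl2. Its other probes gave 0.29, −0.14 and 0.60 against scr.

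The remaining groups were mixed, and their counts are to be read against 43.2% higher and 21.9% lower of all genes. Lipofibroblast and alveolar fibroblast genes were 12 higher and 5 lower of 19 (median 0.52), with the lipid droplet protein Plin4 at 2.56 and the fatty acid binding protein Fabp4 at 1.99 (−0.34 and 0.26 against siLoxl2). Small leucine-rich proteoglycans, which space collagen fibrils, were 5 higher and 5 lower of 12, with Prelp at 2.02 (0.57 with normexp) and Ogn at −1.93; against siLoxl2 these were −0.17 and −0.24. Basement membrane genes were 9 higher and 9 lower of 23 (39.1% each). Lamb3, a laminin chain, was −2.12 (−1.36 with normexp) and −0.08 against siLoxl2, and Agrn (agrin) was −1.92 against scr and −0.52 against siLoxl2, where it passed. Notch, Wnt and Hedgehog genes were 10 higher and 12 lower of 32, with the Notch target Hey2 at −3.73 (−1.70 with normexp) and the Hedgehog antagonist Hhip at 2.75 (0.25 with normexp); against siLoxl2 these were −0.31 and 0.54. Redox and xenobiotic genes were 19 higher and 7 lower of 37, but 14 and 13 with quantile normalization. Cytosolic ribosomal protein genes were 30 higher and 2 lower of 51 with a median of 0.16, below the 0.19 of all genes, and 8 higher and 11 lower with quantile normalization. With 1 array of scr or siLoxl1 left out, the lower ribosomal count was 0 or 1, except without siLoxl1 replicate 3. Pericyte and smooth muscle markers were 4 higher and 7 lower of 14, with Rgs5, a pericyte regulator of G protein signalling, at −4.13 (−2.14 with normexp, and −0.14 against siLoxl2).

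Markers of other cell types moved with the comparison in 1 case above all. Of 12 measured mesothelial markers, 9 were lower than scr and 2 higher, with a median of −1.25 and a mean level of 0.27 to 0.40 in scr, 0.13 to 0.26 in siLox, −0.94 to −0.67 in siLoxl1 and −0.92 to −0.77 in siLoxl2. Wt1, a transcription factor of the mesothelium, read 2.51, 2.49, 2.45 and 2.36 in scr, 0.01, 0.06, 0.03 and 0.20 in siLoxl1 and −0.30 to −0.09 in siLoxl2 (−2.38 ± 0.06 and 0.26 ± 0.06, limma adjusted p = 1.32e-12 and 0.0266). Krt8 and Krt18, paired simple-epithelial keratins, were −4.24 and −3.29 against scr, whereas Krt19 was 2.33 higher and the mesothelial surface protein Msln 0.66 higher. Against siLoxl2 these 4 were 0.12, 0.12, −0.06 and 0.04, and none passed. Endothelial markers were 3 higher and 7 lower of 13, with a mean level of −2.30 to −2.12 in scr and −2.83 to −2.72 in siLoxl1. Against siLoxl2, 0 endothelial markers were higher and 2 lower. Leukocyte markers were 8 higher and 4 lower of 25, with Ptprc at −0.38 and Lyz1 at 1.32, and a mean of −1.55 to −0.60 in scr and −0.98 to −0.96 in siLoxl1. Without scr replicate 1 the lower leukocyte count was 7, and without scr replicate 4 the higher count was 13. Epithelial markers were 4 higher and 3 lower of 12, with means of −1.63 to −1.38 and −1.58 to −1.41. The part of these cells in the differences above was not tested.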

How the data were processed

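Total RNA of 16 samples was labelled with Cy3 (0.1 ug each) and hybridised to 1-colour Agilent arrays. Per the file headers, the authors' scanner software, Agilent Feature Extraction 10.7.3.1, produced the deposited intensity (processed signal, background-corrected) of 62976 spots, 59305 of them non-control, with probe positions on mm9. The authors also deposited a table of log2 values whose columns share 1 distribution and which followed the scanner values at r of 0.997 to 0.999. Deposited flags, here codes of a category other than a measurement, marked spots well above background, saturated (0) and outlying. Outlier spots were left out and replicate spots averaged; probes well above background on all 4 arrays of a group were kept (32476 of 55681, 58.3%), giving 22644 genes, each by its brightest probe (6620 genes had several). No pseudocount was used. limma 3.58.1 in R 4.3.3 fitted all 16 arrays with a mean per group; p-values were adjusted over all genes by Benjamini and Hochberg and 0.05 was the threshold. The number of arrays limits the precision. The fit was tested on simulated data.

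The members and gene lists were chosen with earlier results of these data known. The text names the lysyl oxidases; the 12 highest and 12 lowest genes without overlap between groups; 5 genes per side with the largest bounds; 10 per side passing against scr and siLoxl2; and up to 4 per list. Others are said to be chosen after their values were seen; so were Fn1, Fbln5, Ltbp4, Col1a1, Col1a2, Mmp10, Ptprc and Msln. Replicate numbers recur across groups, but same-numbered deviations of siLoxl1 and scr correlated at −0.037 to 0.020, so the numbers do not pair these samples. Promoter windows came from RefSeq (GRCm38.p6). Alternatives were other scalings, background corrections, filters, probe rules, fits, and leaving out each array; the misread spots were masked as an alternative chosen after seeing the data. A few genes that the rule names are not reported here.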

Additional observations from a re-analysis of the deposited data

Results flagged for a closer look

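Among 168 sets of 4 arrays, 8 (4.76%) held 1 array far from the other 3 by Dixon's criterion. Chance alone gives about 1 in 20 for independent sets. Fn1 was added after its value was seen, and the sets share genes, so this share cannot be compared with that rate. In siLoxl1 replicate 4, Fn1 read −2.6 against 8.25 to 8.33 on the others, and the mean of the fibroblast markers, a list that holds Fn1, read 4.6 against 5.32 to 5.38. Both values rest on the misread spots of that array. The same array read 3.66 for collagen processing genes (others 3.62) and 0.999 for Zbtb44 (others 1.14 to 1.15). In siLoxl1 replicate 1, basement membrane genes averaged 2.31 (others 2.36). In scr, Mmp3 read 0.113 in replicate 1 (others −0.11 to −0.08), Col10a1 0.885 in replicate 4 (others 0.66 to 0.69), and Ifit3 7.56 in replicate 2 (others 7.49).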

How the results depend on the processing

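For 182 named gene results, all of siLoxl1 against scr, 3257 values were recomputed. Of these, 3234 kept direction and call, 20 lost the call and 3 reversed: Prdm10 with the mean of probes (−0.15), and Adamts17 (−0.45) and Actc1 (−0.14) with normexp. Against siLoxl2, only the counts over all genes, Loxl1 and the interferon list were recomputed, so other calls against siLoxl2 come from the main fit alone. Against scr, lower calls rose to 9874 with normexp and 12267 without the filter; leaving out each array gave 9215 to 9909 higher and 4626 to 5138 lower. Against siLoxl2, where 585 were higher and 320 lower, 248 of 579 passing genes were higher with quantile normalization; the calls were 257 and 251 without the filter, and 1382 and 611 in the 8 arrays of slide 2, and 230 to 369 and 217 to 275 without each array; masking the misread spots left 585 higher. With the replicate number as a block, 339 were higher and 266 lower against siLoxl2, and 9696 higher against scr. Same-numbered siLoxl1 and siLoxl2 arrays correlated at 0.121, 0.215, 0.126 and 0.043 in their deviations. Each siLoxl1 array was best with its own number, but siLoxl1 replicate 4 only by 0.0433 against 0.0431 with siLoxl2 replicate 1. The labels do not pair the samples, but the replicate number is also the column on the slide, so same-numbered arrays share a column. The cause was not tested. With normexp the interferon list had 2 higher members and a median of −3.06.

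The medians of 13 of 39 lists changed sign, each of at most 0.41 in size before the change of setting. Under quantile normalization and the authors' table they were: fibrillins −0.0185 and −0.0196, collagen processing −0.0426 and −0.0439, TGF-beta −0.0406 and −0.0415, contractile −0.196 and −0.197, ATF4 −0.0696 and −0.0702, ribosomal −0.0158 and −0.0157, RNA interference −0.0173 and −0.0186, heat shock −0.0529 and −0.0537. Under normexp they were small proteoglycans −0.223, p53 0.0322, epithelial −0.555 and leukocyte −0.110. The contractile median was also −0.0251 with median scaling, −0.0128 for probes detected on all 8 arrays, −0.0160 with the mean of probes, and −0.0128 to 0.03474 without each array in turn, negative without scr replicate 2 or 4 or siLoxl1 replicate 3. Without each array, basement membrane ran from −0.0767 to 0.00076, positive without scr replicate 3, and epithelial from −0.00995 to 0.2803, negative without scr replicate 1 or 3; epithelial was −0.113 for probes detected on all 8 arrays.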
